A study of Mus musculus with 6 samples.

Results

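The ryanodine receptor release complex was followed in the hearts of mice that lack the B and C variants of the electrogenic sodium bicarbonate cotransporter NBCe1. It was taken as 10 genes, namely *Ryr2*, *Casq2*, *Casq1*, *Trdn*, *Asph*, *Jph1*, *Jph2*, *Fkbp1b*, *Hrc* and *Sri*. All 10 were found by symbol among the 16018 genes of the deposited table. RNAseq had been performed on hearts of 3 female NBCe1-B/C KO mice (KO b/c) and 3 female WT mice, all between 4 and 5 weeks of age. KO b/c and WT mice came from crosses of heterozygous parents on a C57BL/6J background. The deletion is present in every tissue from conception and spares NBCe1-A, the kidney variant, so that a heart of a KO b/c mouse also reflects the state of the whole animal. The study recorded Ca2+ transients in cardiomyocytes of these mice, and the comparison here asks whether the transcripts of the release machinery differed between the genotypes.

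In a heart muscle cell, the ryanodine receptor is the channel through which the sarcoplasmic reticulum, the Ca2+ store of the cell, releases Ca2+ to start a contraction. It opens when Ca2+ enters through L-type channels of the facing surface membrane. Calsequestrin and histidine-rich Ca2+ binding protein hold Ca2+ inside the store, triadin and junctin tie calsequestrin to the channel, junctophilins hold both membranes together, and small proteins such as FKBP12.6 and sorcin bind the channel from the cytosolic side.

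The deposited values were read counts that had been scaled by one divisor per library, called normalized counts below. Between 41364857 and 49100802 reads per library were counted on genes. *Slc4a4*, the targeted gene, was counted at 264, 944.8 and 268.7 in KO b/c replicates 1 to 3 and at 675.1, 822.2 and 788.8 in WT replicates 1 to 3. The library labelled KO b/c replicate 2 thus went against its label, and results are given with and without it. Genotypes were compared with limma on log2(normalized count + 1) over 16016 genes, with p-values adjusted over all of them by the Benjamini-Hochberg method and a threshold of 0.05. Across these genes the log2 fold change went with transcript length, taken from the longest annotated form (Spearman's rho = 0.45 across 15978 genes, which are not independent replicates). Values are therefore also given with the trend in transcript length and GC content taken out, called the correction below, after which the rho was 0.03.

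Levels can be set side by side between genes only per length, here as reads per kilobase of annotated exon per 1000000 reads on genes. On this scale the median of all genes tested was 2.82, and every member but *Fkbp1b* was above it. *Casq2*, which encodes the calsequestrin of the heart, was the highest member, with 458.8 to 506.4 over the 6 libraries. *Hrc*, which encodes the histidine-rich Ca2+ binding protein, followed with 311.9 to 444.7, and *Jph2*, the junctophilin of heart muscle, with 157 to 207.3. The channel gene *Ryr2* was at 33.4 to 61.5. *Trdn*, which encodes triadin, was at 24.5 to 26.9, and *Asph*, whose shorter products include junctin, at 13.6 to 15.3.

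*Casq1*, the calsequestrin of skeletal muscle, was at 8.86 to 14.9 on the same scale, *Sri*, which encodes sorcin, at 8.11 to 10.9, *Jph1*, the junctophilin of skeletal muscle, at 3.35 to 6.42, and *Fkbp1b*, which encodes FKBP12.6, at 0.546 to 1.13. The ranges of neighbours in this order did not overlap, except for *Asph* with *Casq1* and *Casq1* with *Sri*. With the longest transcript as the length, *Sri* came before *Casq1*, again with overlap, and *Ryr2* went from a mean of 44.8 to 76.6, since the union of its annotated exons (28790 bases) is longer than its longest transcript (16814 bases). Among the genes tested, *Casq2* stood at percentile 99.6 and *Hrc* at 99.4, and *Fkbp1b* at 29.1.

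**Figure D1:**
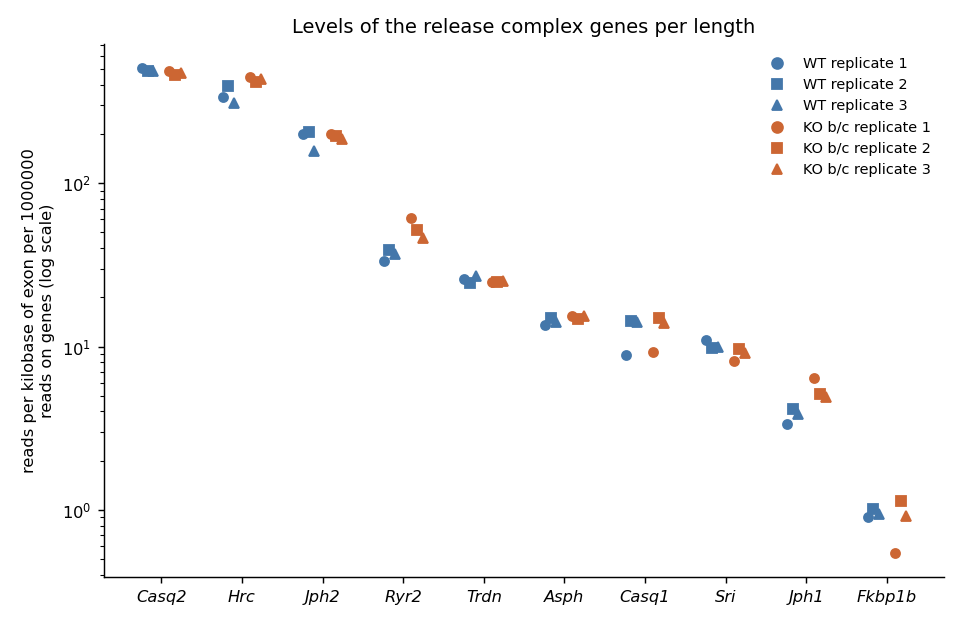
Level of each release complex gene in each heart, as reads per kilobase of annotated exon per 1000000 reads on genes on a log axis, with WT in blue, KO b/c in orange and a marker shape for each replicate. *Casq2* lay highest at 458.8 to 506.4 and *Fkbp1b* lowest at 0.546 to 1.13, and KO b/c replicate 1 and WT replicate 1 stood apart from the others in *Casq1*.

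The store proteins bind Ca2+ through runs of acidic residues, which can be read from the coding sequence. The last 30 codons of *Casq2* and of *Casq1* are shown, since both calsequestrins end in an acidic tail. Codons for aspartate and glutamate are in capitals. The stretch holds 24 such codons in *Casq2* (chr3:102145338-102145427 of GRCm38, forward strand) and 22 in *Casq1* (chr1:172210348-172210437, reverse strand).
Casq2 tail: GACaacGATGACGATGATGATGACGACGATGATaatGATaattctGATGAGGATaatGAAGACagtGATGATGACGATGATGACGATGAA
Casq1 tail: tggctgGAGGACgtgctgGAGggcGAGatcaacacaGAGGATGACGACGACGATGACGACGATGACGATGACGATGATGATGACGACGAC
Over the whole coding sequence, 26.8% of the codons of *Casq2* and 28.4% of those of *Casq1* are acidic.

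*Hrc* carries acidic codons in 30.8% and histidine codons in 11.1% of its 738 codons, the highest share of each among the 10 members. A stretch of 30 codons with 21 acidic codons in capitals (chr7:45337014-45337103, forward strand) and another with its 10 histidine codons in capitals (chr7:45335991-45336080) show the features its name refers to.
Hrc acidic stretch: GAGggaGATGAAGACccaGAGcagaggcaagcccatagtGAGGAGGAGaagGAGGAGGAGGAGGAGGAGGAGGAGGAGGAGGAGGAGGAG
Hrc histidine stretch: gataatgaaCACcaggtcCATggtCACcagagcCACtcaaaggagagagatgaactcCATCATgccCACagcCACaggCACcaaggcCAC
*Trdn* has the highest share of lysine codons, 21.5% of 693. Luminal lysine and acidic residues in alternation are the part of triadin known to bind calsequestrin. The 30 codons richest in them, codons 305 to 334, hold 24, in capitals, and lie on 3 exons within chr10:33233920-33258106 on the forward strand. They were picked by this count alone, and whether they bind calsequestrin was not tested. The annotation holds 4 complete coding transcripts of 277 to 693 codons. The stretch is numbered on the longest of them, and which shorter forms contain it was not checked. The deposited count does not tell these forms apart.
Trdn charged stretch: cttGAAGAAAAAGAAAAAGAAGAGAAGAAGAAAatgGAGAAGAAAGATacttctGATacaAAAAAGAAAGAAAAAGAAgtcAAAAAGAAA

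Between the genotypes, the channel gene and those of 2 of its partners, *Jph1* and *Hrc*, were called higher in KO b/c hearts by DESeq2 but not by limma or edgeR, while *Casq2* and *Trdn* had log2 fold changes of 0.01 and 0.03. *Ryr2*, *Jph1*, *Hrc* and *Asph* lay higher in all 3 KO b/c libraries than in all 3 WT libraries, which was the case for 15.6% of all genes tested. No member lay lower in all KO b/c libraries, against 14.6% of all genes. By limma, no member and no other gene passed the adjusted threshold (0% called), and the lowest adjusted p-value of any gene was 0.0815. The same 4 members had an unadjusted p-value under 0.05 with a higher level in KO b/c hearts, against 13% of all genes, and 0 with a lower level, against 10.5% of all genes.

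The count test of DESeq2 on the recovered reads, with its own adjustment, called *Ryr2*, *Jph1* and *Hrc* higher, against 8.22% of the 11979 genes to which it gave an adjusted p-value, and no member lower, against 5.03%. The quasi-likelihood test of edgeR called 0 members and 0 genes, with 4 members and 3837 genes at an unadjusted p-value under 0.05. The median log2 fold change of the 10 members was 0.11, beside 0.00 over all genes tested. Since each group had 3 mice, an exact two-sided permutation test of a single gene could not go below p = 0.1. The p-values measure the spread between the hearts of different mice. In heart tissue, more muscle cells and more RNA per muscle cell cannot be told apart.

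**Figure D2:**
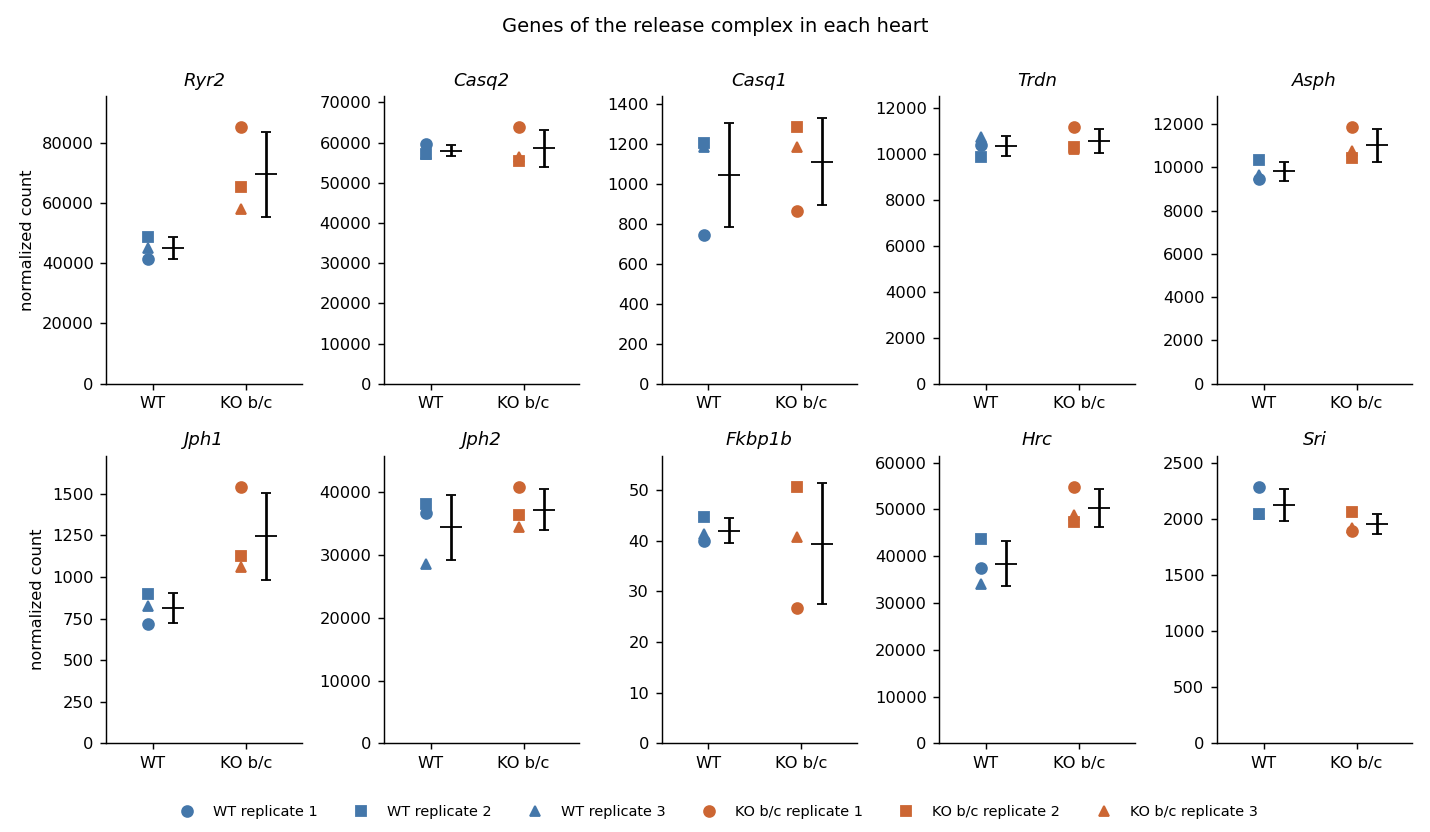
Normalized count of each release complex gene in each heart, on axes that start at 0, with WT in blue, KO b/c in orange, a marker shape for each replicate, and the mean with the SD of the 3 hearts of a group in black. For *Ryr2*, *Asph*, *Jph1* and *Hrc*, the 3 KO b/c hearts lie above the 3 WT hearts, and for the other 6 genes the groups overlap.

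*Ryr2* (ENSMUSG00000021313; chromosome 13 of GRCm38, 11553102 to 12106945, reverse strand, in the GENCODE M21 annotation) was counted at 85097, 65171 and 58092 in KO b/c replicates 1 to 3 and at 41359, 48679 and 45150 in WT replicates 1 to 3. KO b/c replicate 1 was the highest by far, and the lowest KO b/c heart was still above the highest WT heart. The mean was 69453 ± 14002 in KO b/c and 45063 ± 3661 in WT hearts (SD, n = 3 each), 1.54 times higher. The log2 fold change was 0.61 (SE 0.14, limma adjusted p = 0.0815), and the adjusted p-value by DESeq2 was 0.000196. An exact two-sided permutation test gave p = 0.1.

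*Ryr2* is also the member with the longest transcript, and only 29 of the 15978 genes with a known length have a longer one. The genes in its length decile had a median log2 fold change of 0.23. After the correction, the log2 fold change of *Ryr2* was 0.32 (SE 0.12), its groups still did not overlap, and the adjusted p-value by DESeq2 was 0.0737, past the threshold no longer. Without the library labelled KO b/c replicate 2 the log2 fold change was 0.64 before the correction, and without KO b/c replicate 1 it was 0.45. In the corrected DESeq2 fit it was 0.33 with all libraries and 0.19 without KO b/c replicate 1 (DESeq2 adjusted p = 0.155). Over the left-out libraries that adjusted p-value ran from 0.0278 (KO b/c replicate 3) to 0.254 (WT replicate 3). By rank, *Ryr2* had the 265th highest log2 fold change of the 16016 genes.

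Of the Ca2+ binding proteins in the store, *Hrc* was higher in KO b/c hearts and the calsequestrins showed no such separation. *Hrc* (ENSMUSG00000038239; chromosome 7, 45335290 to 45338974) was counted at 54854, 47252 and 48797 in KO b/c replicates 1 to 3 and at 37418, 43652 and 34140 in WT replicates 1 to 3. All 3 KO b/c hearts were above the WT hearts, of which replicate 2 came closest. The mean was 50301 ± 4018 in KO b/c and 38403 ± 4832 in WT hearts (SD, n = 3 each), 1.31 times higher. On the log2 scale the difference was 0.39 (SE 0.11, limma adjusted p = 0.0921). The adjusted p-value by DESeq2 was 0.0049, and it was 0.0572 without WT replicate 1.

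Unlike *Ryr2*, *Hrc* has a short transcript of 2411 bases. The genes in its length decile had a median log2 fold change of -0.06, opposite in sign to its own, and the correction took it to 0.47 (SE 0.12). The adjusted p-value by DESeq2 was then 0.00498, where 1.25% of the 14152 genes with an adjusted p-value in that fit were called higher, but it was 0.051 without WT replicate 1 and 0.0562 without WT replicate 3. Without the library labelled KO b/c replicate 2, the log2 fold change by limma was 0.44.

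*Casq2* (ENSMUSG00000027861; chromosome 3, 102086415 to 102146514) was counted at 63828, 55300 and 56484 in KO b/c replicates 1 to 3 and at 59669, 57180 and 57193 in WT replicates 1 to 3. The WT hearts lay inside the range of the KO b/c hearts. Its log2 fold change was 0.01 (SE 0.08, limma adjusted p = 0.957), with a 95% confidence interval from -0.18 to 0.20. *Casq2* is among the 57 genes with the highest mean count, so counting error was 0.414% of its count and did not limit the comparison.

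*Casq1* (ENSMUSG00000007122; chromosome 1, 172209894 to 172219868) had far fewer reads, with 866.4, 1285 and 1185 normalized counts in KO b/c replicates 1 to 3 and 744.8, 1205 and 1184 in WT replicates 1 to 3. Here both libraries numbered 1 were low and the other 4 were alike, whatever the genotype. The log2 fold change was 0.10 (SE 0.20, limma adjusted p = 0.799), and it turned to -0.12 without WT replicate 1 and to -0.01 without KO b/c replicate 2. The same 2 libraries were the lowest in 4 of 5 markers of atrial muscle (*Myl7*, *Myl4*, *Sln* and *Nppa*). For the other, *Bmp10*, WT replicate 1 was the lowest at 18.4 and KO b/c replicate 1 was at 300.7, the highest of the KO b/c hearts. The summed normalized count of the 5 markers was 15730 and 24721 in them and 74008 to 111700 in the other 4. Whether the amount of atrium in the sample had a part in the values of *Casq1* was not tested. Casq2 reads were 43 to 80.1 times as many as Casq1 reads in a library.

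Triadin and junctin are the membrane proteins that link calsequestrin to the channel. *Trdn* (ENSMUSG00000019787; chromosome 10, 33080554 to 33476709) was counted at 11170, 10288 and 10224 in KO b/c replicates 1 to 3 and at 10403, 9884 and 10741 in WT replicates 1 to 3. The groups overlapped throughout. This gave a log2 fold change of 0.03 (SE 0.07, limma adjusted p = 0.822), with a 95% confidence interval from -0.12 to 0.18, the narrowest of the 10 members.

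*Asph* (ENSMUSG00000028207; chromosome 4, 9448069 to 9669344) encodes several proteins from one locus. They are the enzyme aspartate beta-hydroxylase, junctin and junctate, which share exons at their start. The annotation holds 12 complete coding transcripts of 197 to 741 codons, and the deposited count sums them, so that junctin cannot be told from the enzyme. The gene was counted at 11852, 10417 and 10761 in KO b/c replicates 1 to 3 and at 9442, 10318 and 9652 in WT replicates 1 to 3. KO b/c replicate 2 and WT replicate 2 nearly touched. Its log2 fold change was 0.17 (SE 0.07, limma adjusted p = 0.203, DESeq2 adjusted p = 0.155). After the correction it was 0.00 and the groups overlapped. The exons of *Asph* share 2368 bases with genes on the other strand, and whether strand was used in counting is not given in the sources used here.

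The junctophilins bridge the surface membrane and the store. *Jph1* (ENSMUSG00000042686; chromosome 1, 16964560 to 17097889), the form of skeletal muscle, was counted at 1542, 1128 and 1062 in KO b/c replicates 1 to 3 and at 720.2, 899.2 and 823.9 in WT replicates 1 to 3. KO b/c replicate 1 was again the highest and WT replicate 1 the lowest, as for *Ryr2*. The mean was 1244 ± 260.2 in KO b/c and 814.4 ± 89.9 in WT hearts (SD, n = 3 each), 1.53 times higher. The log2 fold change was 0.60 (SE 0.15, limma adjusted p = 0.0844), and the adjusted p-value by DESeq2 was 0.00233.

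The correction left *Jph1* at a log2 fold change of 0.51 (SE 0.14, DESeq2 adjusted p = 0.0238), with the groups still apart. In that corrected fit the call by DESeq2 was lost without KO b/c replicate 1 (adjusted p = 0.11) and without WT replicate 3 (adjusted p = 0.118). Without WT replicate 1, DESeq2 gave *Jph1* no adjusted p-value, since its own filter on low counts left it out. Without the library labelled KO b/c replicate 2, the log2 fold change by limma was 0.66 before the correction.

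*Jph2* (ENSMUSG00000017817; chromosome 2, 163336242 to 163397993), the form of heart muscle, was counted at 40854, 36389 and 34426 in KO b/c replicates 1 to 3 and at 36649, 38059 and 28502 in WT replicates 1 to 3. WT replicate 3 stood below the other 5 hearts, which overlapped. This gave a log2 fold change of 0.12 (SE 0.12, limma adjusted p = 0.585), with a 95% confidence interval from -0.15 to 0.39, and it was -0.01 without WT replicate 3. Reads of *Jph2* were 34.6 to 50.9 times those of *Jph1* in WT hearts and 26.5 to 32.4 times in KO b/c hearts. The log2 of this ratio was 4.92 ± 0.17 in KO b/c and 5.40 ± 0.28 in WT hearts (SD, n = 3 each), a difference of -0.48 without overlap between the groups (exact two-sided permutation test, p = 0.1).

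The proteins that bind the channel from the cytosol are sorcin and FKBP12.6. *Sri* (ENSMUSG00000003161; chromosome 5, 8046078 to 8069379) encodes sorcin, a Ca2+ binding protein that lowers the open probability of the channel. It was counted at 1891, 2058 and 1916 in KO b/c replicates 1 to 3 and at 2286, 2040 and 2041 in WT replicates 1 to 3. KO b/c replicate 2 lay between the WT hearts, and the other KO b/c hearts lay below them. On the log2 scale the difference was -0.12 (SE 0.07, limma adjusted p = 0.367), and -0.03 after the correction.

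*Fkbp1b* (ENSMUSG00000020635; chromosome 12, 4833174 to 4841591) had only 27 to 49 reads per library, so that counting error alone was 15.7% of its count. Its normalized count was 26.8, 50.7 and 40.8 in KO b/c replicates 1 to 3 and 40, 44.7 and 41.2 in WT replicates 1 to 3. KO b/c replicate 1 was the lowest and KO b/c replicate 2 the highest of all hearts. The log2 fold change was -0.13 (SE 0.27, limma adjusted p = 0.806). Its 95% confidence interval, from -0.74 to 0.48, held a decrease as large as the increase of *Jph1*. DESeq2 gave *Fkbp1b* no adjusted p-value, since its own filter on low counts left the gene out. *Fkbp1a*, its close relative that encodes FKBP12, was counted at 7512 ± 174 in KO b/c and 8445 ± 690 in WT hearts (SD, n = 3 each; log2 fold change -0.17, limma adjusted p = 0.205). How reads shared by these similar genes were assigned is not given in the sources used here.

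**Figure D3:**
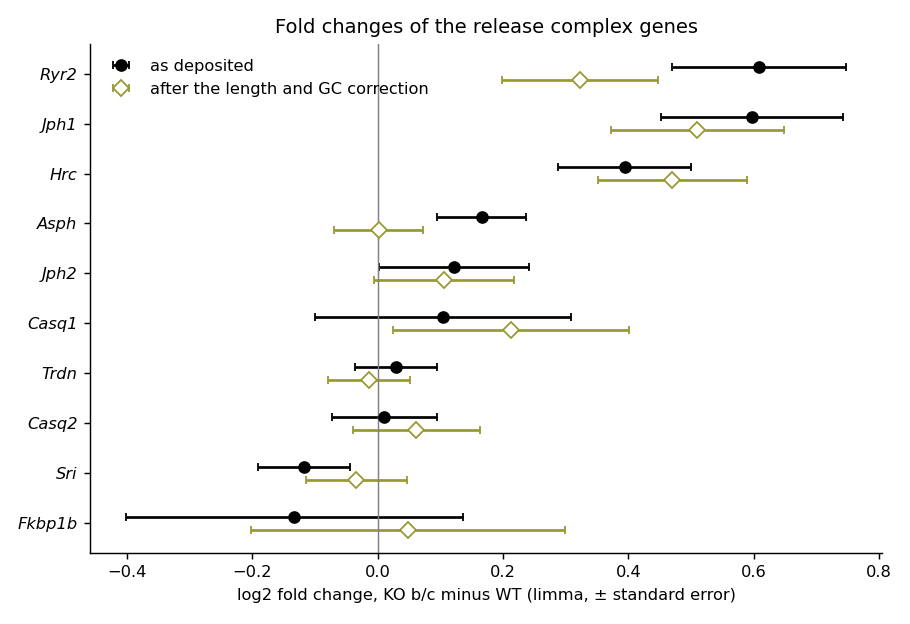
Log2 fold change of KO b/c minus WT hearts with its standard error from limma, for each release complex gene, as deposited (black) and after the length and GC correction (open symbols). The correction moved *Ryr2* from 0.61 to 0.32 and *Asph* from 0.17 to 0.00, and left *Jph1* at 0.51 and *Hrc* at 0.47.

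Read against the length trend, the members fell into different positions. The median log2 fold change of the tested genes ran from -0.20 in the decile with the shortest transcripts to 0.23 in the decile with the longest. *Asph* and *Trdn* lay below the median of their own length decile (0.23 and 0.08), *Sri* was below its median of -0.06, and the other 7 members were above theirs. *Jph1* shares its decile with *Trdn*, and *Hrc* shares its decile with *Casq2* and *Sri*, so that members of like length differed in log2 fold change. After the correction, *Ryr2*, *Jph1* and *Hrc* were still apart between the groups, as were 11.2% of all genes in that direction. *Trdn* turned to -0.01 and *Fkbp1b* to 0.05.

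**Figure D4:**
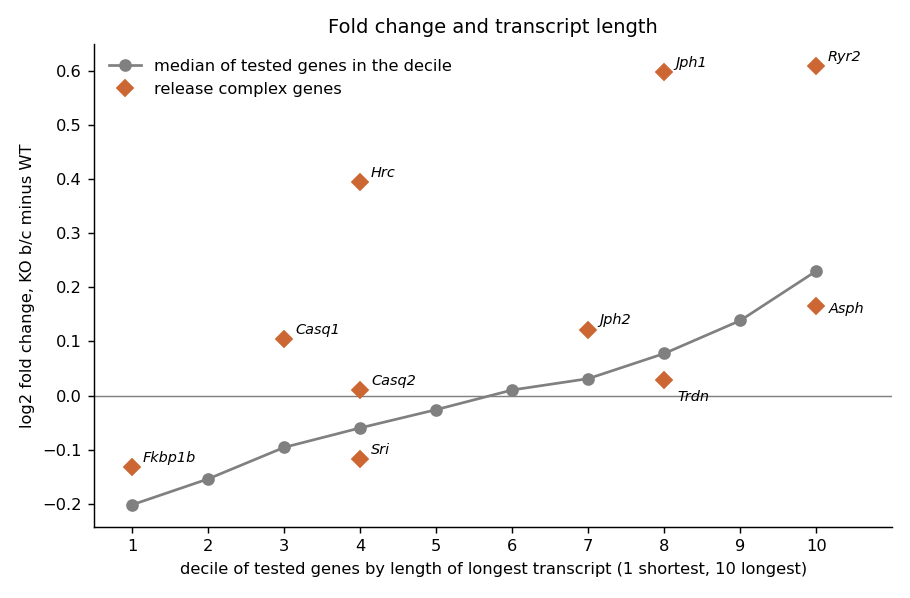
Log2 fold change of each release complex gene (diamonds) at its decile of tested genes by the length of the longest transcript, with the median of all tested genes in each decile as the grey line. The grey medians run from -0.20 to 0.23, and *Hrc*, *Jph1* and *Ryr2* lie farthest above them.

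A ratio within a library does not depend on the scaling between libraries, so each member was also set against the channel. *Casq2* had 1.44, 1.17 and 1.27 reads per *Ryr2* read in WT replicates 1 to 3. In KO b/c replicates 1 to 3 it had 0.75, 0.849 and 0.972. The difference in the log2 ratio was -0.60. These reads are not scaled to length, so a ratio above or below 1 does not rank the levels of the 2 genes. Per length, *Casq2* was above *Ryr2* in every heart, at 458.8 to 506.4 against 33.4 to 61.5. The log2 ratio to *Ryr2* was lower in all KO b/c than in all WT hearts for *Casq2*, *Trdn*, *Asph*, *Jph2*, *Fkbp1b* and *Sri*, with differences from -0.44 for *Asph* to -0.75 for *Fkbp1b*. The same separation was seen for 72.6% of all other genes tested, with *Ryr2* itself higher in every KO b/c heart, so that 6 of 9 members was close to the share over all genes. Without KO b/c replicate 1 the difference for *Fkbp1b* was -0.34. Each of these 6 had the smallest p that the exact two-sided permutation test allows (p = 0.1), or 0.157 after Benjamini-Hochberg adjustment over the 11 ratios computed, so none passed 0.05. For *Hrc* the difference was -0.21, or 0.15 after the correction, and for *Casq1* it was -0.50, or -0.18 without KO b/c replicate 1, and their groups overlapped.

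*Jph1* kept nearly the same ratio to *Ryr2* in every heart, from 0.0173 to 0.0185 reads per read, and the difference in log2 ratio was -0.01 (exact two-sided permutation test, p = 0.6). After the correction this difference was 0.19, with all KO b/c above all WT hearts, as for 0.462% of the other genes. The ratio of *Casq2* to *Ryr2* then differed by -0.26 and that of *Trdn* by -0.34, in both cases still without overlap, as for 47.1% of the other genes. The ratio of *Fkbp1b* differed by -0.27 with overlap. Without the library labelled KO b/c replicate 2, the differences before the correction were -0.60 for *Casq2*, -0.60 for *Trdn* and 0.01 for *Jph1*.

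**Figure D5:**
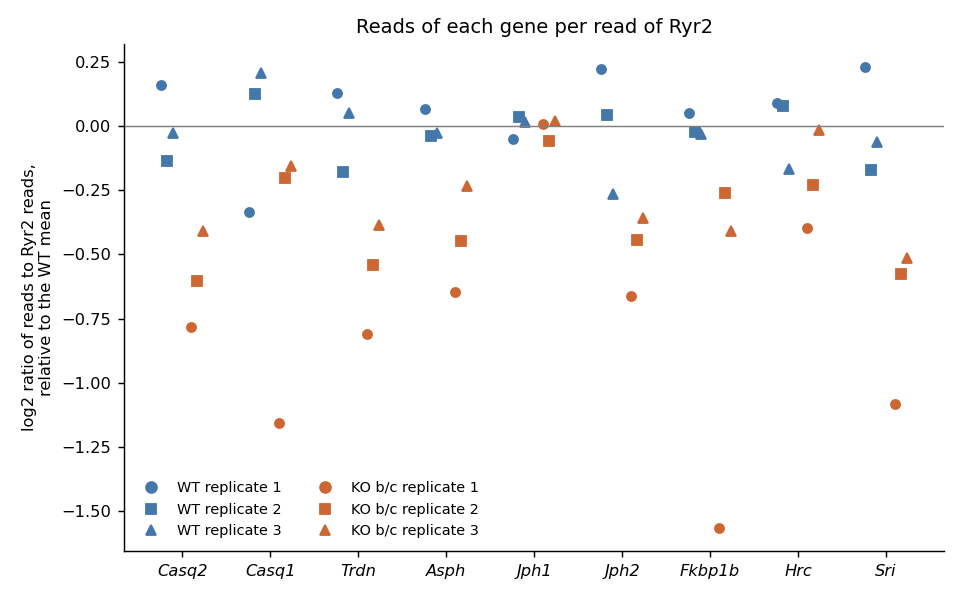
Log2 ratio of the reads of each gene to those of *Ryr2* in each heart, shown relative to the mean of the WT hearts (grey line at 0), with WT in blue, KO b/c in orange and a marker shape for each replicate. The KO b/c hearts lie below the WT hearts for 6 of the 9 genes, as they do for 72.6% of all other genes tested, and for *Jph1* all 6 hearts lie close to 0, with a difference of -0.01 between the group means.

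Across the 6 libraries, each member was compared with the others by the root mean square difference of its centred log2 values, where 0 would mean an identical profile. *Ryr2* and *Jph1* were each other's nearest member, at 0.04, and *Casq2* and *Trdn* were each other's nearest, at 0.05. No other pair of members was nearest both ways except *Casq1* and *Fkbp1b*, which were far apart at 0.25. Among 11907 genes outside the complex whose mean reached 100 normalized counts, the profile closest to *Ryr2* was that of *Abcc9* at 0.02, which encodes the SUR2 subunit of ATP-sensitive potassium channels. It was followed by *Slco5a1*, a member of the organic anion transporter family, and *Slc8a1*, which encodes the sodium-calcium exchanger, both at 0.04. Their longest transcripts are 7499, 8509 and 18464 bases, and all 3 fall in the longest decile of the genes. Among those closest to *Casq2* were *Ifngr1*, which encodes a chain of the interferon gamma receptor, and 9530068E07Rik, both at 0.02.

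The other genes of Ca2+ release were read from lists, with no gene past an adjusted p of 0.05 by limma in any list. The counts per list are of genes with an unadjusted p-value under 0.05 by limma, which 13% of all genes reached with a higher and 10.5% with a lower level in KO b/c hearts. Of 20 other release channels and channel regulators, 9 had such a p-value with a higher and 4 with a lower level, and the median log2 fold change was 0.16, or 0.02 after the correction. *Itpr1*, the inositol trisphosphate receptor with the most counts here and named after its values were seen, was at 2742 ± 258 in KO b/c and 2070 ± 240.2 in WT hearts (SD, n = 3 each; log2 fold change 0.41, or 0.16 after the correction). *Prkar2a*, a regulatory subunit of protein kinase A, had a log2 fold change of 0.33 and 0.23 after the correction. *S100a1*, a Ca2+ sensor that binds the ryanodine receptor, had a log2 fold change of -0.24, and -0.05 after the correction. The other ryanodine receptors were low, with *Ryr3* at 82 to 122.7 and *Ryr1* at 9.92 to 168.5 normalized counts.

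Of 13 measured genes of dyad and junction architecture, 4 had an unadjusted p-value under 0.05 with a higher and 1 with a lower level, with a median of 0.17 and 0.21 after the correction. *Cmya5*, which encodes a scaffold that tethers the store to the Z-disc, had 40157, 35039 and 32571 normalized counts in KO b/c replicates 1 to 3 and 20391, 25472 and 23364 in WT replicates 1 to 3, well apart. Its log2 fold change was 0.64 (SE 0.11, limma adjusted p = 0.0815, DESeq2 adjusted p = 4.59e-06), and 0.37 after the correction. *Ank2*, an adaptor that places the exchanger and the sodium pump at the junction, had a log2 fold change of 0.50, and 0.22 after the correction.

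Of 15 genes of luminal Ca2+ binding and folding, 3 had an unadjusted p-value under 0.05 with a higher and 2 with a lower level (13% and 10.5% of all genes), with a median of 0.01. *Srl*, which encodes sarcalumenin, a Ca2+ binding protein of the store, had a log2 fold change of 0.36 (0.26 after the correction) and *Canx*, which encodes the chaperone calnexin, of 0.28 (0.25 after the correction). Of 7 measured genes of Ca2+ uptake, 2 had such a p-value with a higher and 1 with a lower level, with a median of 0.08, or 0.18 after the correction. *Atp2a2*, which encodes the pump SERCA2, had a log2 fold change of 0.48 (limma adjusted p = 0.129, DESeq2 adjusted p = 0.000114), or 0.34 after the correction, and *Hax1*, a partner of phospholamban, of -0.25. Of 5 genes of the L-type channel that triggers release, 4 had such a p-value with a higher and 0 with a lower level, with a median of 0.39, or 0.20 after the correction. *Cacna2d1* and *Ahnak*, which encode an auxiliary subunit and a scaffold of that channel, had log2 fold changes of 0.47 and 0.39, and 0.29 and 0.11 after the correction.

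Markers of the cells in a heart were summed beside these results. The 8 markers of ventricular muscle were high in every library, with summed normalized counts of 2764700 to 3094700 in KO b/c and 2435700 to 2552600 in WT hearts, and their median log2 fold change was 0.03. Within this list, *Myh6* was higher in all KO b/c hearts (log2 fold change 0.55) and *Myl2* lower in all of them (-0.18), so the list did not move as 1 group. The 11 measured markers of skeletal muscle summed to 1366 to 4863 in KO b/c and 1540 to 2027 in WT hearts. The highest value was in the library labelled KO b/c replicate 2, where *Casq1* was the highest as well, at 1285 against 1205 in the next heart. In that library *Tnnt3* was at 802.2, *Mylpf* at 686.4 and *Atp2a1* at 640.9 normalized counts, against at most 187.7, 164 and 170.1 in the other hearts. The myosins *Myh1* and *Myh2* were at 0.992 to 53.6 over the 6 hearts, and *Myh4* was not analysed here. Endothelial markers were at 39067 to 41994 in KO b/c and 35559 to 37658 in WT hearts. The part of these differences in the values of the release complex was not tested.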

How the data were processed

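The deposited signal was a table of normalized read counts for 16018 genes in 6 heart libraries, made by the authors. Per the submitters' processing notes, the tools were Trimmomatic 0.36, STAR 2.5.2b, featureCounts of Subread 1.5.2 and DESeq2, with genome build GRCm38. The annotation and the counting rules for strand and shared reads are not given in the sources used here. Reads were paired, of 150 bases each. The values are not scaled to gene length.

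Groups and replicate numbers came from the sample labels, and 0 columns were left unmapped. Divided by the value of 1 read in each library, 100% of the values were whole (tolerance 0.001), so that the counts could be recovered as whole reads. Symbols, positions, lengths and coding sequences came from GENCODE M21 (15980 genes matched).

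The comparison used limma 3.58.1 (R 4.3.3) with a variance trend on log2(normalized count + 1), over 16016 genes whose mean was 10 or more. This scale understates the change of low genes. The recovered reads were also tested with edgeR 4.0.16 and with DESeq2 1.42.0. Further alternatives were other pseudocounts (0.5 and 5), filters, scalings and variance models, a replicate block, leaving out each library, and a correction that subtracts from each library a smooth trend in GC content and in the log2 length of the transcript (splines, 5 degrees of freedom). Running DESeq2 without single libraries was chosen after seeing the data. The code was tested on simulated counts. The genes named were the 10 members, *Slc4a4*, the 2 genes of each list with the lowest unadjusted p-value (none passed the threshold), and the 3 genes nearest in profile to *Ryr2* and to *Casq2*, of which 1 is not reported here. *Itpr1*, *Fkbp1a*, *Ryr1*, *Ryr3* and the marker genes were named after their values were seen. The members, lists and tests were chosen with earlier results of these data known. *Jph3* and *Strit1* of the lists and the markers *Myh4* and *Cd3e* were not found among the genes tested.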

Additional observations from a re-analysis of the deposited data

How the results depend on the processing

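*Ryr2*, *Jph1*, *Hrc* and *Asph* stayed above 0 and *Sri* below 0 under 20 alternatives tried for each member. In the corrected DESeq2 fits without single libraries, *Asph* turned to -0.033 without KO b/c replicate 1 and to -0.041 without WT replicate 3, and *Sri* to 0.00169 without KO b/c replicate 3 and to 0.0305 without WT replicate 1. Among those 20, signs changed in 18 of 199 values, in *Casq2*, *Casq1*, *Trdn*, *Fkbp1b* and *Jph2*. Rescaling to the same total gave log2 fold changes of -0.0625 for *Casq2* and -0.0431 for *Trdn*, and a median of 0.0399 over the members. Quantile normalization gave -0.11 for *Casq2* and -0.00067 for *Trdn*, and sample quality weights gave -0.0212 for *Casq2*. The length and GC correction gave -0.0135 for *Trdn* and 0.0486 for *Fkbp1b*, the same with the replicate block added, and with DESeq2 -0.0126 and 0.0801. Leaving out single libraries moved *Casq2* from -0.0535 to 0.0499, *Trdn* from -0.0113 to 0.0574, *Fkbp1b* from -0.33 to 0.11, *Casq1* from -0.12 to 0.27, *Jph2* from -0.0085 to 0.20, and the median over the members from 0.087 to 0.20, the highest without WT replicate 2. The sign turned without KO b/c replicate 1 for *Casq2*, *Trdn* and *Fkbp1b*, without KO b/c replicate 2 or WT replicate 1 for *Casq1*, without WT replicate 2 for *Trdn* and without WT replicate 3 for *Jph2*.

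Genes past the adjusted threshold numbered 0 by limma and edgeR, 1587 by DESeq2 and 345 by DESeq2 with the correction, with 3 and 2 members among them. Leaving out single libraries gave 0 to 3 genes by limma, the 3 without KO b/c replicate 2 and no member among them. It gave 2 to 3 members by DESeq2, where *Hrc* was lost without WT replicate 1. In these fits 3.16% (without WT replicate 1) to 7.8% (without KO b/c replicate 3) of genes with an adjusted p-value were called higher. With the correction it gave 0 to 3 members, against 0.692% to 2.46% of such genes called higher. In the corrected fit without WT replicate 1, only 6 members and 1733 genes had an adjusted p-value. There 0 members were called, against 0.692% of those genes called higher. Without WT replicate 3 it was 0 of 9 members with an adjusted p-value, against 0.77% of genes. Without KO b/c replicate 1 it was 1 of 9 (0.848% of genes), and without KO b/c replicate 3 it was 3 of 9 (2.46%). The cause of these differences between fits was not tested. *Fkbp1b* has no value with a minimum mean of 50.

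Whether the replicate numbers pair the hearts cannot be settled with 3 hearts per group. Deviations from the group means correlated at 0.23, 0.07 and -0.03 between hearts of the same number. KO b/c replicate 1 correlated best with WT replicate 1, KO b/c replicate 2 with WT replicate 3 (0.10), and KO b/c replicate 3 with WT replicate 2 (0.15). With the replicate block, 0 genes and 0 members passed, and the adjusted p-value by limma was 0.105 for *Ryr2*. In that fit 3 members had an unadjusted p-value under 0.05 by limma. The share of all genes in that fit was not computed, so that this count cannot be set against it. Without the block it was 4 members, against 23.5% of all genes. Counting error was 15.7% for *Fkbp1b* and at most 3.11% for the other members.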

Other observations

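The 10 genes together took 0.566%, 0.521% and 0.512% of the reads on genes in KO b/c replicates 1 to 3. In WT replicates 1 to 3 they took 0.461%, 0.491% and 0.444%. The summed share was thus larger in each KO b/c heart than in each WT heart. These shares are of reads and are not scaled to length. The members did not all go in this direction. On the per-length scale of the levels above, the mean of *Ryr2* was 53.1 in KO b/c and 36.4 in WT hearts. That of *Casq2* was 472.7 in KO b/c and 493.6 in WT hearts. The mean was also lower in KO b/c hearts for *Trdn*, *Fkbp1b* and *Sri*, and higher for the remaining members. The summed share without *Ryr2* was not computed.

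KO b/c replicate 1 held the highest count of 7 members (*Ryr2*, *Casq2*, *Trdn*, *Asph*, *Jph1*, *Jph2* and *Hrc*) and the lowest of *Fkbp1b* and *Sri*. The deviation of KO b/c replicate 1 from the mean of the 6 libraries was 0.62 for *Ryr2* and 0.63 for *Jph1* on the log2 scale, against 0.23 and 0.18 in KO b/c replicate 2 and 0.07 and 0.09 in KO b/c replicate 3. Of 2 conduction markers, *Hcn4*, which encodes a pacemaker channel and was named after its values were seen, was at 1328, 805.3 and 1059 normalized counts in KO b/c replicates 1 to 3 and at 625.9, 779.6 and 546.5 in WT replicates 1 to 3, with no overlap (limma adjusted p = 0.0921), and *Cntn2* overlapped between the groups.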
